A study of Homo sapiens with 8 samples.

Results

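Long noncoding RNAs (long transcripts with no known protein product) were followed in 2 colorectal adenocarcinoma lines, SW620 and SW480, with and without caffeine. The account covers 7 of the 62649 genes counted: LUCAT1, LINC00659, LINC01594, LINC01345 and LINC01238, which were chosen because their level changed with caffeine in 1 of the 2 lines, and MALAT1 and NEAT1, which were taken as abundant references. Values of the first 5 are therefore given as a description with no test, whereas MALAT1 and NEAT1 were tested. All 7 passed the filter on low counts.

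The 8 poly-A RNA libraries formed 4 groups of 2: SW620 with caffeine, SW620 control, SW480 with caffeine and SW480 control. SW620 and SW480 came from a lymph node metastasis and the primary tumour of the same patient, and every group, the controls included, carried a B8-mCherry fusion, a fluorescent tag on an immunoproteasome subunit. Per the labels, SW620 cultures were given caffeine at 30, 60, 100, 250 and 500 µM for 72 hours, or at 125 µM for 28 days, and the dose and time behind the sequenced libraries were not stated. The labels name at least 2 biological replicates per group without saying whether they were grown on separate days, so the p-values measure the spread between these libraries. Each library held 15760259 to 23269315 reads assigned to genes. Levels are given as CPM, read counts scaled to library size with TMM factors, with replicates 1 and 2 in that order.

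Long noncoding RNAs are transcribed by RNA polymerase II like mRNAs, and many act in the nucleus, as scaffolds for proteins or by the act of being transcribed beside other genes. LUCAT1 was first described in smoke-exposed airway cells, is switched on by the oxidative stress factor NRF2 and dampens interferon responses in human macrophages. NEAT1 is the scaffold of paraspeckles, nuclear bodies built on its long isoform and on the proteins NONO and SFPQ. MALAT1 collects in nuclear speckles beside splicing factors, and its high level has been tied to metastasis. The functions of LINC00659, LINC01594, LINC01345 and LINC01238 are far less well known, although LINC00659 has been studied in colorectal cancer.

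The promoters of the strongest responders are shown because they are the sequences from which the response would be transcribed. The RefSeq promoter table (GRCh38.p14, 250 bases before to 50 after a start site) held 4 of the 7 genes, and the 3 below are written 5′ to 3′ on the gene's own strand, with motif matches in capitals. The motifs searched on both strands were TGANTCA (AP-1), TGACNNNGC (the antioxidant response element bound by NRF2), ACGTG (the core of the hypoxia response element) and TGACGTCA (the cAMP response element bound by CREB). LUCAT1 lies at chr5:91314353-91314652 (minus strand), LINC00659 at chr20:62776807-62777106 (minus strand) and LINC01594 at chr2:108217792-108218091 (minus strand).
LUCAT1: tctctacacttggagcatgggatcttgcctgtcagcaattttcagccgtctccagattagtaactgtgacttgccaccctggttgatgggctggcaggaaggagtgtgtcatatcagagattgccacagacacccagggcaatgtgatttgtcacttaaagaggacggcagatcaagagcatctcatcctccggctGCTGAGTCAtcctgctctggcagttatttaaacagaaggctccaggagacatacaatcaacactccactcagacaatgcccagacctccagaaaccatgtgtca
LINC00659: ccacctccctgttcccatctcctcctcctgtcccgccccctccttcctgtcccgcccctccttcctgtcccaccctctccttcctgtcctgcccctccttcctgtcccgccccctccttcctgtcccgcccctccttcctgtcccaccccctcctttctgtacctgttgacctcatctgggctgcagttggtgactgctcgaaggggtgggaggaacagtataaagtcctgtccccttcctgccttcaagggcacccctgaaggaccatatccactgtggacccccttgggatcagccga
LINC01594: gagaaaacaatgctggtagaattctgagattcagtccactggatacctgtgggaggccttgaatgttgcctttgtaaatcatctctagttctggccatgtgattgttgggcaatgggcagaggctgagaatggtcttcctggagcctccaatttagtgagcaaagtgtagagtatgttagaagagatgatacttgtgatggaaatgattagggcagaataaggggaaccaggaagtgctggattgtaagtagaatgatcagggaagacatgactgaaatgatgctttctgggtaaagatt
The LUCAT1 window held 1 match, GCTGAGTCA, starting 54 bases before the start site, in which an antioxidant response element on the minus strand of the window overlaps the AP-1 match TGAGTCA on its plus strand. The windows of LINC00659 and LINC01594 held none of the 4 motifs. Of 35116 promoters of the same length, 13.3% held an antioxidant response element, 7.71% an AP-1 element, 21.4% the hypoxia core and 1.85% a cAMP response element. Of the MALAT1 windows, 1 held 2 antioxidant response elements. LINC01238, LINC01345 and NEAT1 were not in the table.

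Poly-A selection captures an RNA by its tail, so the annotated 3′ ends bear on what the libraries could see, without settling it. The last 60 bases of selected GENCODE 29 transcripts are given 5′ to 3′ with the polyadenylation hexamers AATAAA and ATTAAA in capitals.
LINC00659-201: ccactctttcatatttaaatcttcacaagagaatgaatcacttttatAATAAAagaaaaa
LINC01594-201: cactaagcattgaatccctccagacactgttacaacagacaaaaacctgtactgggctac
NEAT1-208: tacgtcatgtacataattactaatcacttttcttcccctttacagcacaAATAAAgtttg
NEAT1-202: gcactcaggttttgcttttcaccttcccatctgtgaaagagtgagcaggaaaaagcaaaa
MALAT1-202: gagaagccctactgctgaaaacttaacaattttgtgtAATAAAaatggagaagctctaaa
The 2994-base NEAT1-208 ends just after AATAAA, whereas the 22743-base NEAT1-202, the isoform that builds paraspeckles, ends without a hexamer in an A-rich stretch. The mature ends of long NEAT1 and of MALAT1 are known to be cut by RNase P and held in a triple helix rather than tailed. The single annotated transcript of LINC00659, 540 bases long, carries a hexamer, and the 611-base transcript of LINC01594 does not. Of transcripts not shown, 0 of 4 for LINC01238, 3 of 3 for LINC01345 and 25 of 55 for LUCAT1 carry a hexamer. LINC01594 and LINC01238 were counted in every library all the same. How much of each RNA was lost at selection was not tested.

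LUCAT1 rose about 5-fold in SW620 cells given caffeine while its SW480 groups overlapped. It stood at 34.7 and 30.4 CPM in SW620 cells with caffeine, against 6.22 and 6.01 CPM in SW620 controls. In SW480 it stood at 6.44 and 4.64 CPM with caffeine, against 5.63 and 6.42 CPM in controls. Both caffeine libraries of SW620 were thus far above the other 6, which all lay between 4.64 and 6.44 CPM. The log2 fold change was 2.41 ± 0.17 (SE) in SW620 and -0.14 ± 0.20 in SW480, a difference of 2.55 ± 0.26. Without the second SW480 caffeine library the SW480 value was 0.07. Among the 2718 long noncoding RNAs tested, this was the 21st highest response in SW620.

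LINC00659 was also about 5-fold higher in SW620 cells with caffeine. It stood at 39.2 and 33.5 CPM in SW620 cells with caffeine, against 6.93 and 7.77 CPM in SW620 controls, and at 10.2 and 11.2 CPM in SW480 cells with caffeine, against 11.6 and 14.4 CPM in SW480 controls. The SW620 caffeine libraries were again the highest of all and the SW620 controls the lowest, and both SW480 caffeine libraries lay below both SW480 controls. The log2 fold change was 2.30 ± 0.16 in SW620, the 30th highest among the tested long noncoding RNAs, and -0.27 ± 0.16 in SW480, with a difference of 2.58 ± 0.23. Across the 8 libraries the log2 CPM of LUCAT1 and LINC00659 had a Pearson r of 0.919, which rests mainly on the pair of SW620 caffeine libraries that both share.

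**Figure D1:**
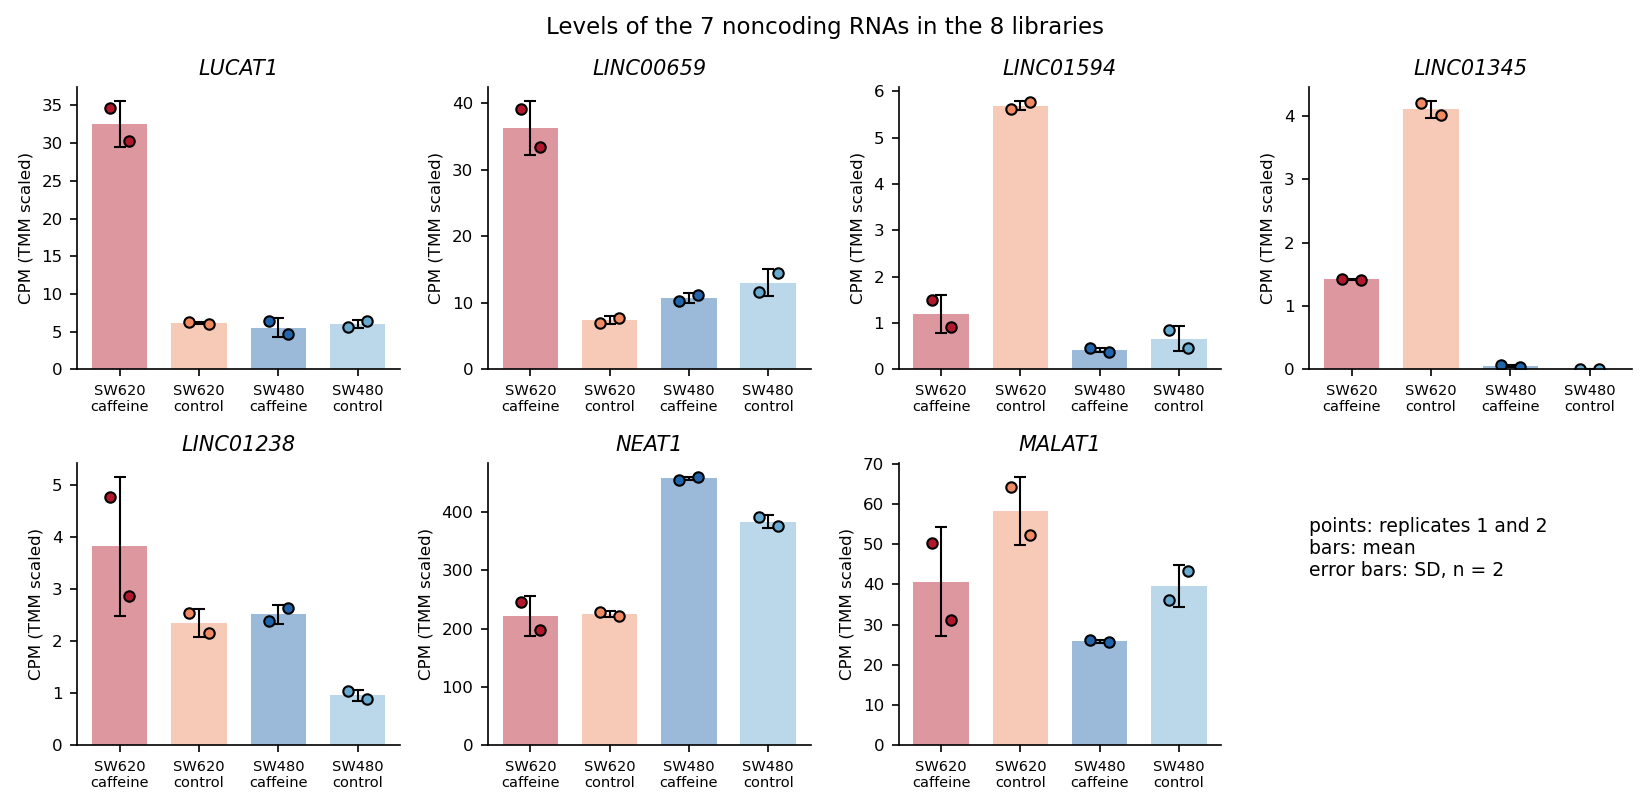
Level of each noncoding RNA in CPM (y axis, linear from 0, a scale of its own per panel) in SW620 caffeine, SW620 control, SW480 caffeine and SW480 control libraries. Points are replicates 1 and 2, bars the mean and error bars the SD (n = 2 each); LUCAT1 averaged 32.5 ± 3.08 CPM in SW620 with caffeine and 6.12 ± 0.149 CPM in SW620 controls, while LINC01345 was at or near 0 in SW480.

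LINC01594 and LINC01345 went the other way, both mainly expressed in SW620 and both lower there with caffeine. LINC01594 stood at 1.49 and 0.906 CPM (25 and 18 counts) in SW620 cells with caffeine, against 5.62 and 5.76 CPM (111 and 115 counts) in SW620 controls. In SW480 it was near the limit of counting in every library, at 0.451 and 0.383 CPM (7 and 9 counts) with caffeine and 0.847 and 0.467 CPM (14 and 8 counts) in controls. Its log2 fold change was -2.26 ± 0.29 in SW620, the 29th lowest of the tested long noncoding RNAs, and -0.66 ± 0.50 in SW480, so the point estimate was negative in both lines and the difference of -1.60 ± 0.60 had a wide error. Leaving out either SW620 caffeine library gave a SW620 value between -2.63 and -1.93.

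LINC01345 had 24 and 28 counts in SW620 cells with caffeine, against 83 and 80 counts in SW620 controls, which is 1.43 and 1.41 CPM against 4.20 and 4.01 CPM. Its libraries agreed closely within each SW620 group, and the log2 fold change was -1.53 ± 0.28, the 73rd lowest. In SW480 it had 1 count in each caffeine library and 0 in each control library. Both SW480 groups were at or below the floor of 3 counts over a group, so no fold is given there, and its response in SW480 could not be read at this depth. Such floors and counting intervals cover counting error only.

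LINC01238 was chosen for SW480. It stood at 2.38 and 2.64 CPM (37 and 62 counts) in SW480 cells with caffeine, against 1.03 and 0.876 CPM (17 and 15 counts) in SW480 controls. In SW620 it stood at 4.76 and 2.87 CPM (80 and 57 counts) with caffeine, against 2.53 and 2.15 CPM (50 and 43 counts) in controls. The caffeine libraries were above the controls in both lines, with the SW620 caffeine replicates far apart. The log2 fold change was 1.40 ± 0.34 in SW480, the 124th highest there, and 0.69 ± 0.27 in SW620, and the difference, SW620 minus SW480, was -0.71 ± 0.45. In SW620 the value ran from 0.30 to 1.02 when either caffeine library was left out. A second gene ID with the same symbol had 0 to 4 counts per library and was not tested.

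**Figure D2:**
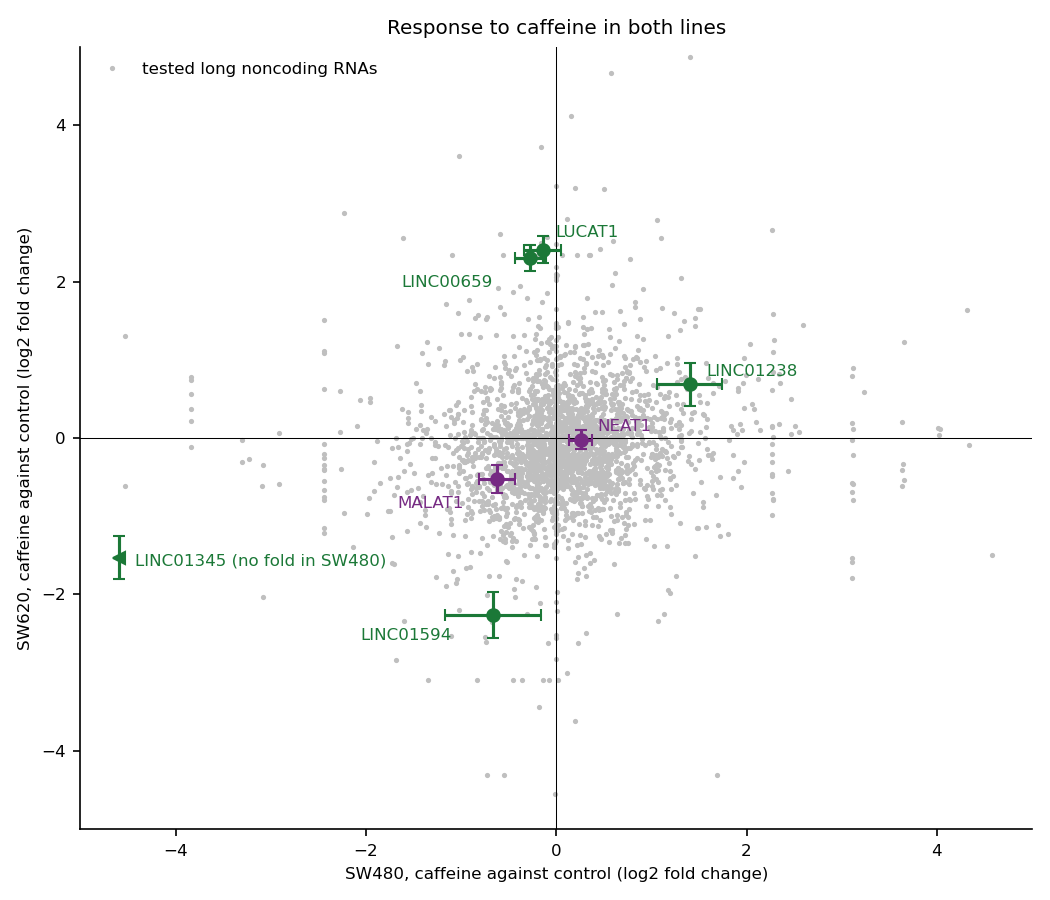
Log2 fold change, caffeine against control, in SW620 (y axis) and SW480 (x axis) for the noncoding RNAs (green for the chosen, purple for NEAT1 and MALAT1; error bars are SE) over the tested long noncoding RNAs in grey. LUCAT1 and LINC00659 lie at 2.41 and 2.30 in SW620 and near 0 in SW480; LINC01345 is drawn at the left edge because it has no fold in SW480, and 1 grey point lies outside the axes.

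Measured against the whole table, the chosen RNAs came from a response that was wider in SW620. With caffeine 14.4% of the 17671 tested genes were called in SW620 (adjusted p under 0.05, edgeR quasi-likelihood test with Benjamini-Hochberg adjustment over all tested genes), and 10.4% of the tested long noncoding RNAs, 109 higher and 174 lower. In SW480 3.6% of the tested genes and 2.06% of the tested long noncoding RNAs were called, 32 higher and 24 lower. Split by direction, 8.1% of all tested genes were called higher and 6.25% lower in SW620, and 1.67% higher and 1.93% lower in SW480. The difference between the lines was called for 6.71% of tested genes and 3.64% of tested long noncoding RNAs. In both lines 14 long noncoding RNAs were called, 4.95% of those called in SW620 and 25% of those called in SW480, and 9 of them changed in the same direction. Of the 269 called in SW620 and not in SW480, 65 also passed the test of the difference between the lines, as did 12 of the 42 called in SW480 and not in SW620. The matching overlaps over all tested genes were not counted. Whether these shares are particular to long noncoding RNAs is therefore not known. The median log2 fold change of the tested long noncoding RNAs was -0.12 in SW620 and 0.05 in SW480, against -0.01 and 0.00 for all tested genes.

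NEAT1 was the most abundant of the 7 in CPM and did not pass the test of caffeine in either line. It stood at 246 and 198 CPM in SW620 cells with caffeine, against 228.7 and 221.3 CPM in SW620 controls, groups that overlapped. In SW480 it stood at 455.7 and 459.9 CPM with caffeine, against 391 and 376 CPM in controls, groups that did not overlap. The log2 fold change was -0.02 ± 0.12 in SW620 (adjusted p = 0.946) and 0.26 ± 0.12 in SW480 (adjusted p = 0.265), and the difference between the lines was -0.28 ± 0.17 (adjusted p = 0.368, all edgeR quasi-likelihood tests).

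MALAT1 had lower values with caffeine in both lines and did not pass the test in either. It stood at 50.4 and 31.1 CPM in SW620 cells with caffeine, against 64.4 and 52.4 CPM in SW620 controls, and at 26.1 and 25.6 CPM in SW480 cells with caffeine, against 36.0 and 43.4 CPM in SW480 controls. In each line both caffeine libraries lay below both controls. How many of all tested genes separate in this way was not counted, so such separations carry no weight in this account. The log2 fold change was -0.52 ± 0.18 in SW620 (adjusted p = 0.0676) and -0.62 ± 0.19 in SW480 (adjusted p = 0.0830), with a difference of 0.10 ± 0.26 (adjusted p = 0.880). Averaged over the lines, a contrast added after the values were seen and in which 9.41% of tested genes and 6.14% of tested long noncoding RNAs were called, the change was -0.57 ± 0.13 (adjusted p = 0.0123, edgeR); the same average for NEAT1 was 0.12 ± 0.09 (adjusted p = 0.445). TALAM1, the antisense partner of MALAT1, had 0 to 7 counts per library.

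The SW620 value of MALAT1 moved with the caffeine library used: without the first the log2 fold change was -0.90 (adjusted p = 0.00519, edgeR), and without the second it was -0.21 (adjusted p = 0.581). The second SW480 caffeine library stood apart in its share of mitochondrial reads, 1.63%, against 4.38% to 6.16% in the other 7. Without it the SW480 log2 fold changes were 0.23 for NEAT1 (adjusted p = 0.625), -0.62 for MALAT1 (adjusted p = 0.390) and 1.30 for LINC01238.

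The untreated lines were compared next. The control libraries also entered the choice of the 5 RNAs, so their values here are a description, and only MALAT1 and NEAT1 were tested, against a background of 65.6% of all tested genes and 60.7% of tested long noncoding RNAs called between the same libraries. SW620 controls were higher in LINC01594 by a log2 fold change of 3.11 ± 0.33 and in LINC01238 by 1.29 ± 0.35. LINC01345 had 163 counts over the SW620 controls and 0 over the SW480 controls, at least 46.0-fold higher against the floor of 3 counts over the SW480 group. LINC01594 and LINC01345 passed the filter on low counts through SW620 alone.

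SW620 controls stood below SW480 controls in LINC00659, by -0.82 ± 0.17, and LUCAT1 had overlapping levels in the untreated lines (0.02 ± 0.19). NEAT1 was lower in SW620 controls (-0.77 ± 0.12, adjusted p = 3.68e-05) and MALAT1 higher (0.56 ± 0.18, adjusted p = 0.0141, edgeR quasi-likelihood test). The call of MALAT1 was lost without the first SW620 control (0.39, adjusted p = 0.152) or the first SW480 control (0.42, adjusted p = 0.0992).

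In the caffeine-treated cells the line contrast shares libraries with the responses above and is given for the chosen RNAs as a description. SW620 cells exceeded SW480 cells by 2.57 ± 0.18 on the log2 scale for LUCAT1, 1.76 ± 0.16 for LINC00659, 1.51 ± 0.44 for LINC01594 and 0.58 ± 0.27 for LINC01238. LINC00659 was thus lower in SW620 than in SW480 without caffeine and higher with it. LINC01345 had 52 counts in SW620 and 2 in SW480 with caffeine, a ratio of 27.7 (exact 95% interval 7.29 to 235). MALAT1 was higher in SW620 (0.65 ± 0.19, adjusted p = 0.00605) and NEAT1 lower (-1.05 ± 0.12, adjusted p = 1.21e-06), where 66.3% of tested genes and 57.2% of tested long noncoding RNAs were called (edgeR). Without the first SW620 caffeine library the MALAT1 value was 0.26 (adjusted p = 0.233).

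Levels of different RNAs can be set side by side only per length, here as CPM per kilobase of annotated exon. LINC00659 led in SW620 with caffeine at 67.3 ± 7.46, followed by NEAT1 at 9.74 ± 1.49, MALAT1 at 4.61 ± 1.55, LUCAT1 at 1.97 ± 0.186, LINC01594 at 1.96 ± 0.674, LINC01238 at 1.34 ± 0.469 and LINC01345 at 0.766 ± 0.00741 (SD, n = 2). LUCAT1 and LINC01594, and LINC01594 and LINC01238, overlapped between their libraries there. In SW620 controls the order was LINC00659 at 13.6 ± 1.09, NEAT1 at 9.88 ± 0.23, LINC01594 at 9.31 ± 0.169, MALAT1 at 6.61 ± 0.961, LINC01345 at 2.22 ± 0.0729, LINC01238 at 0.821 ± 0.093 and LUCAT1 at 0.37 ± 0.009, with no overlap between neighbours.

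In SW480 with caffeine NEAT1 at 20.1 ± 0.13 and LINC00659 at 19.8 ± 1.26 overlapped at the top, followed by MALAT1 at 2.93 ± 0.0398, LINC01238 at 0.88 ± 0.0641, LINC01594 at 0.682 ± 0.0779 and LUCAT1 at 0.335 ± 0.0767. In SW480 controls LINC00659 at 24.1 ± 3.75 led NEAT1 at 16.8 ± 0.467, MALAT1 at 4.50 ± 0.595 and LINC01594 at 1.08 ± 0.44, and LUCAT1 at 0.364 ± 0.0339 overlapped with LINC01238 at 0.334 ± 0.0379. NEAT1 too depends on its length: were all its reads from the tailed 2994-base NEAT1-208, an alternative added after seeing the data, it would stand at 74.1 ± 11.3 in SW620 with caffeine, overlapping LINC00659, and above LINC00659 at 75.1 ± 1.75 in SW620 controls, 153 ± 0.987 in SW480 with caffeine and 128 ± 3.55 in SW480 controls. Its place in the order is therefore not settled. That of LINC00659 rests on 1 annotated transcript of 540 bases, although its RefSeq start site differs from the GENCODE one. A longer transcript would lower LINC00659 on this scale, so its lead is not settled either. LUCAT1 is understated on this scale, since its 55 annotated transcripts add up to 16538 exon bases, far more than any 1 of them. In CPM, NEAT1 ranked 4th of the 2718 tested long noncoding RNAs by mean level and MALAT1 only 43rd. By counted reads the label of an abundant reference thus held for NEAT1 better than for MALAT1. The annotation puts a gene on the opposite strand that shares 396 exon bases with MALAT1, and the strand setting of the counting is not given. The antisense partner TALAM1 was counted under another gene ID, with 0 to 7 counts per library. The exon bases TALAM1 shares with MALAT1 were not measured, so the overlap may exceed those 396 bases. If strand was not used, reads on any shared bases would be left out as ambiguous. The rank, level per kilobase and fold changes of MALAT1 rest on the reads that were counted. How many MALAT1 reads were left out as ambiguous, or lost at poly-A selection, was not tested.

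**Figure D3:**
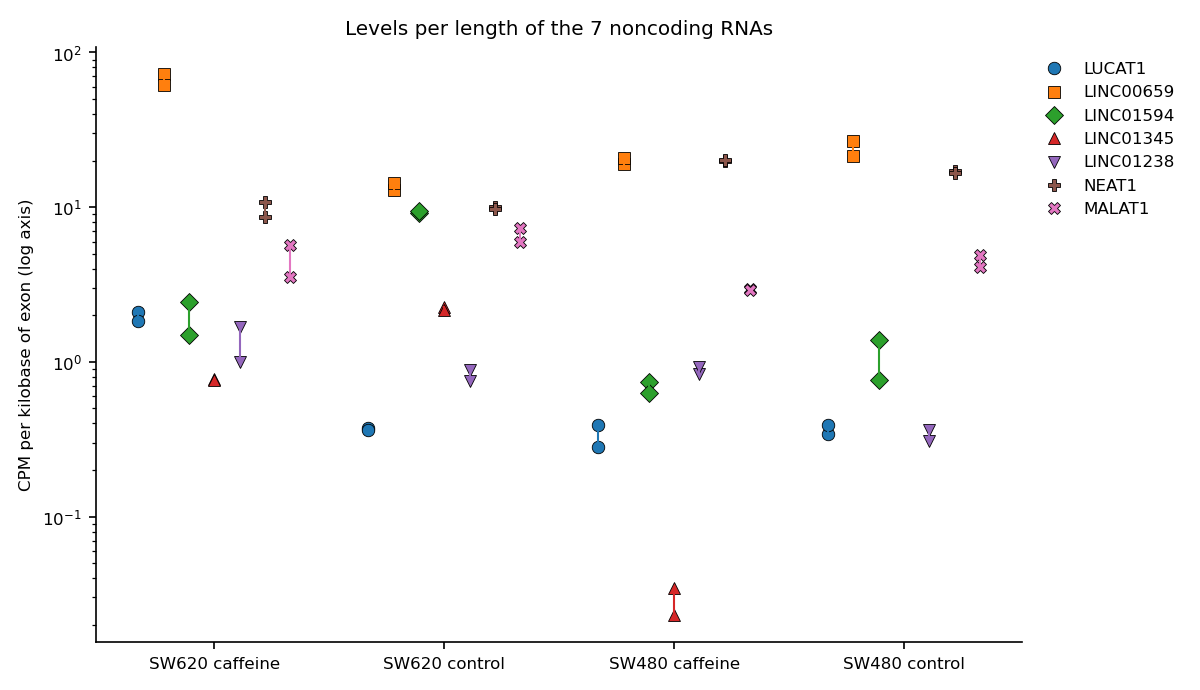
CPM per kilobase of annotated exon (log axis) of each noncoding RNA in the 4 groups, with replicates 1 and 2 as linked points and each RNA by its own marker. LINC00659 reaches 67.3 in SW620 with caffeine against 13.6 in SW620 controls; LINC01345 in SW480 controls is at 0 and is not drawn.

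The genes beside the chosen RNAs were examined because transcription of a long noncoding RNA often goes along with that of its neighbours (GENCODE 29, GRCh38). LUCAT1 spans chr5:91054834-91314547 on the minus strand, where it overlaps the adhesion receptor gene ADGRV1 on the opposite strand with no shared exon base. Of its 3 tested neighbours none was called in SW620, although LYSMD3 was without the filter on low counts (adjusted p = 0.0353), with SW620 fitted alone (0.00878) and without either SW480 control (0.0282 and 0.0253). The log2 fold change there was 0.24 ± 0.16 for ADGRV1 (adjusted p = 0.380), 0.28 ± 0.14 for the arrestin-domain gene ARRDC3, 54177 bases away (adjusted p = 0.220), and 0.47 ± 0.18 for LYSMD3 (adjusted p = 0.0846). ARRDC3 rose in SW480, with 16.7 and 18.3 CPM with caffeine against 9.44 and 10.3 CPM in controls (0.83 ± 0.15, adjusted p = 0.00810, edgeR), a call lost without the second SW480 caffeine library (adjusted p = 0.104). The difference between its responses, -0.55 ± 0.21, was not called (adjusted p = 0.119, edgeR).

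LINC00659 lies at chr20:62774128-62775412 on the minus strand, and its RefSeq start site differs from the GENCODE one. Its neighbour NTSR1, the neurotensin receptor gene 11357 bases away on the opposite strand, also rose in SW620, with 195 and 189 CPM with caffeine against 130 and 126 CPM in controls (0.58 ± 0.13, adjusted p = 0.00661, edgeR). That call was lost without either SW620 control library (adjusted p = 0.0719 and 0.102). MRGBP, on the other side, stood at 0.24 ± 0.13 (adjusted p = 0.258). LINC01594 (chr2:108167748-108217841, minus strand) lies between SLC5A7 and SULT1C3, which had 2 and 9 counts over all 8 libraries and were not tested.

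The remaining pair of chosen RNAs each overlap a tested long noncoding RNA, and that partner was called in the same line and direction. The noncoding genes that overlap LUCAT1 had at most 5 counts over all 8 libraries and were not tested. LINC01345 (chr1:3944547-3948980, minus strand) overlaps LINC01346 on the opposite strand with no shared exon base. LINC01346 stood at 9.41 and 5.69 CPM in SW620 with caffeine, against 18.8 and 16.7 CPM in SW620 controls, a fall of -1.24 ± 0.22 (adjusted p = 0.00112, edgeR) that passed the test without any 1 library, and it was at most 0.128 CPM in SW480. The strand setting of the counting is not given in the sources used here. Reads of spliced RNA fall on different exons of these genes. Without strand, however, unspliced reads of either gene over an exon of the other cannot be told apart. The protein-coding neighbour C1orf174 was at -0.08 ± 0.13 in SW620 (adjusted p = 0.740), and AJAP1 on the other side had 0 counts.

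LINC01238 (chr2:241970683-241977276, plus strand) lies within LINC01237 on the same strand, again with no shared exon base. LINC01237 stood at 2.64 and 3.87 CPM in SW480 with caffeine, against 1.57 and 1.58 CPM in SW480 controls (1.07 ± 0.27, adjusted p = 0.0393), and at 5.18 and 4.43 CPM in SW620 with caffeine, against 5.87 and 5.46 CPM in SW620 controls (-0.24 ± 0.22, adjusted p = 0.508). The difference between the lines was -1.32 ± 0.35 (adjusted p = 0.0313, edgeR). The SW480 call was lost without the second SW480 caffeine library (0.72, adjusted p = 0.433), either SW480 control (adjusted p = 0.139 and 0.0667) or either SW620 control (adjusted p = 0.0608 and 0.0603). It was also lost by the DESeq2 Wald test (0.0596), limma-voom (0.0757) and with SW480 fitted alone (0.0520), as was the difference by DESeq2 (0.0544) and limma-voom (0.0516). NEAT1 (chr11:65422774-65445540, plus strand) and MALAT1 (chr11:65497688-65506516, plus strand) lie beside each other, with FRMD8 on the side of lower coordinates. FRMD8 stood at 0.02 ± 0.15 in SW620 and -0.03 ± 0.15 in SW480 (adjusted p = 0.956 and 0.950, edgeR).

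**Figure D4:**
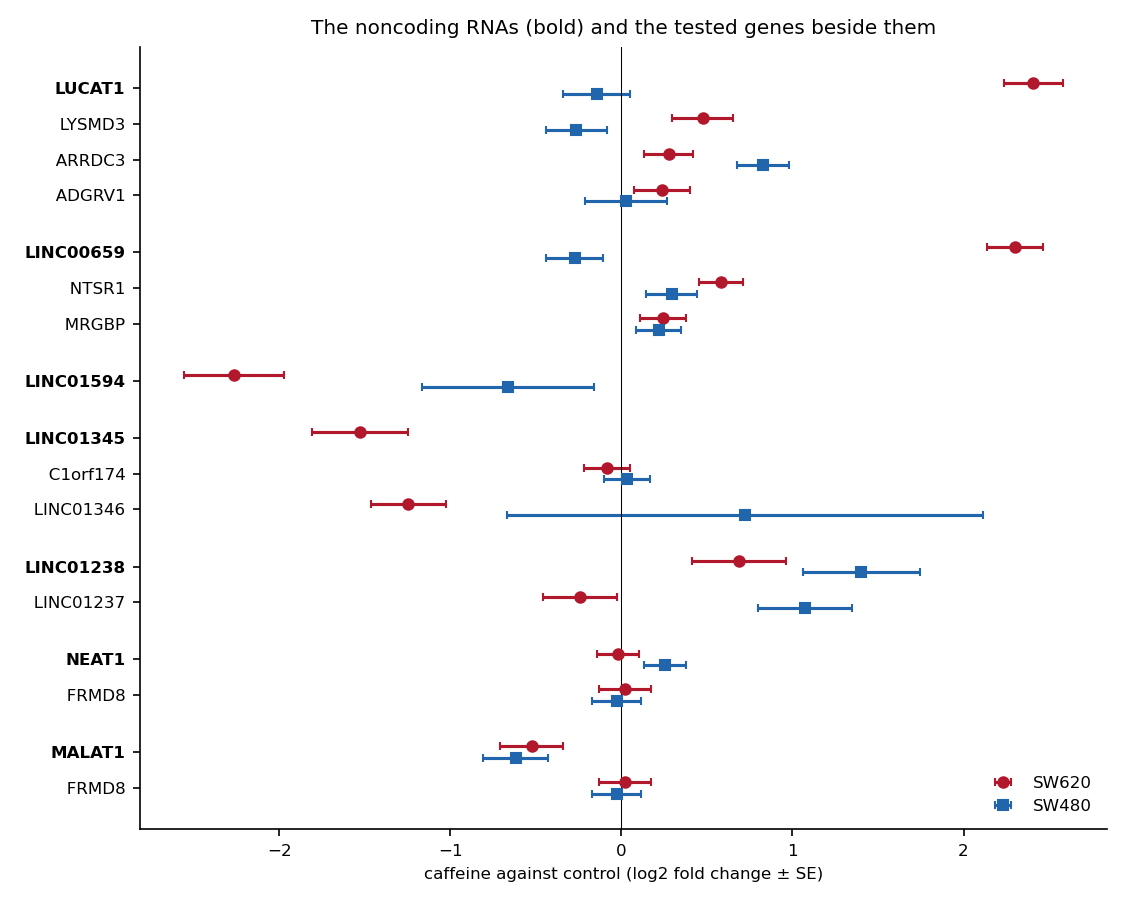
Log2 fold change, caffeine against control, of each noncoding RNA (bold) and of tested genes that overlap it or lie near it, in SW620 (red circles) and SW480 (blue squares) with SE as error bars. LINC01346 at -1.24 in SW620 lies near LINC01345 at -1.53, and LINC01237 at 1.07 in SW480 near LINC01238 at 1.40.

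NRF2 targets were set beside LUCAT1, itself a target of that factor. Of 13 tested targets 2 rose in SW620 and none fell, 15.4% against 14.4% of all tested genes called and so near the background, with a median log2 fold change of 0.19 against -0.01 for all tested genes, and in SW480 1 rose (7.69%, against 3.6%) with a median of -0.08. In SW620 these were OSGIN1, an oxidative stress-induced growth inhibitor, at 13.5 and 11.5 CPM with caffeine against 5.41 and 6.62 CPM in controls (1.05 ± 0.20, adjusted p = 0.00217), and HMOX1 (0.78 ± 0.26, adjusted p = 0.0497), which makes heme oxygenase (edgeR). SLC7A11, the cystine transporter, rose in SW480, with 12.7 and 13.8 CPM with caffeine against 6.96 and 7.70 CPM in controls (0.86 ± 0.17, adjusted p = 0.0141), and stood at -0.38 ± 0.14 in SW620 (adjusted p = 0.0800), a difference of -1.23 ± 0.22 (adjusted p = 0.00310). NQO1, the most abundant of the list at a mean of 280 CPM over all libraries, and SRXN1 (1.01 ± 0.33 in SW480, adjusted p = 0.103) were not called. The OSGIN1 call held without any 1 library, and DESeq2 and limma-voom each called 1 of the list in SW620. The HMOX1 call was lost without either SW480 caffeine library (adjusted p = 0.0530 and 0.0538), the first SW620 caffeine library (0.321) or either SW620 control (0.0790 and 0.382). The SLC7A11 call in SW480 was lost without the second SW480 caffeine or the first SW480 control library (adjusted p = 0.170 and 0.0613).

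Genes for proteins of the bodies that NEAT1 and MALAT1 form part of were set beside them. Of 14 tested paraspeckle protein genes 2 fell and none rose in SW620, while 2 rose and none fell in SW480. That is 14.3% in each line, against 14.4% of all tested genes in SW620, the same as the background, and 3.6% in SW480. The medians were -0.05 and 0.05. SFPQ, a core paraspeckle protein, stood at 422 and 441 CPM in SW620 with caffeine, against 672 and 682 CPM in controls (-0.65 ± 0.12, adjusted p = 0.00125), and kept this call without any 1 library. CPSF6, of the 3′ end cleavage machinery, also fell in SW620 (-0.48 ± 0.12, adjusted p = 0.0116), a call lost without the first SW620 caffeine library or either SW620 control (adjusted p up to 0.158). PSPC1, a partner of NONO and SFPQ, rose in SW480 with 86.7 and 103 CPM with caffeine against 55.0 and 67.4 CPM in controls (0.64 ± 0.14, adjusted p = 0.0187), as did RBM14, another paraspeckle protein gene (0.51 ± 0.13, adjusted p = 0.0370, all edgeR). Both SW480 calls were lost without the second SW480 caffeine or the first SW480 control library, with adjusted p of 0.231 and 0.114 for PSPC1 and of 0.243 and 0.211 for RBM14, and that of RBM14 also without either SW620 control (0.0783 and 0.0762). NONO, the most abundant at a mean of 1110 CPM over all libraries, was not called.

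Of 13 tested nuclear speckle protein genes 3 fell in SW620 and none rose (23.1%, against 14.4% of all tested genes called), with a median of -0.12. These were the splicing factor genes SRSF2, with 402 and 376 CPM with caffeine against 575 and 601 CPM in controls (-0.59 ± 0.12, adjusted p = 0.00340), SRSF1 (-0.39 ± 0.12, adjusted p = 0.0352) and SRSF7 (-0.39 ± 0.11, adjusted p = 0.0287). In SW480 the count was 0 by edgeR, 0 by DESeq2 and 0 by limma-voom, with 0 at an unadjusted p under 0.05 and a median of 0.00. U2AF2, which reads the 3′ splice site, was at 0.15 ± 0.11 in SW480 (adjusted p = 0.498), and SRRM2, the most abundant at a mean of 648 CPM over all libraries, was not called. The SRSF2 call was lost without the second SW620 caffeine or the second SW620 control library (adjusted p = 0.0547 and 0.0713), and those of SRSF1 and SRSF7 without any 1 of the SW620 libraries (adjusted p up to 0.249 and 0.246).

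Other long noncoding RNAs were taken in 3 lists of known classes. Of 13 tested microRNA host genes 4 rose in SW620 and none fell (30.8%, against 14.4% of all tested genes called), with a median of 0.35 against -0.01 for all tested genes. MIR210HG, the host of the hypoxia-induced miR-210, stood at 24.9 and 18.7 CPM in SW620 with caffeine, against 5.52 and 3.36 CPM in controls (2.29 ± 0.22, adjusted p = 3.71e-06), and at 0.77 ± 0.28 in SW480 (adjusted p = 0.133). MIR22HG had 12.6 and 16.6 CPM in SW620 with caffeine, against 5.72 and 5.96 CPM in controls (1.32 ± 0.18, adjusted p = 9.62e-05), and 28.5 and 24.8 CPM in SW480 with caffeine, against 44.4 and 38.3 CPM in controls (-0.64 ± 0.15, adjusted p = 0.0297, edgeR). MIR22HG thus rose in SW620 and fell in SW480.

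MIR503HG rose in both lines, by 0.83 ± 0.16 in SW620 (adjusted p = 0.00236) and 0.69 ± 0.14 in SW480 (adjusted p = 0.0167), and MIR23AHG rose in SW620 (0.59 ± 0.18, adjusted p = 0.0389, edgeR). In SW480 the list's median was 0.05, or 0.12 with the 1 gene that has a group at 0 set at its bound. MIR4435-2HG, the most abundant at a mean of 42.6 CPM, was not called. The SW620 calls of MIR210HG and MIR22HG held without any 1 library, while the SW480 calls of MIR22HG and MIR503HG were lost without the second SW480 caffeine library (adjusted p = 0.269 and 0.186) or the first SW480 control (0.140 and 0.0976). The MIR23AHG call was lost without the first SW620 caffeine library (0.253) or either SW620 control (0.309 and 0.0679).

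Of 22 tested snoRNA host genes, whose introns carry small nucleolar RNAs, 3 fell in SW620 (13.6%, against 14.4% of all tested genes called and so near the background) and 2 rose in SW480 (9.09%, against 3.6%), with medians of -0.18 and 0.17. EPB41L4A-AS1 fell in SW620, with 72.0 and 58.6 CPM with caffeine against 96.5 and 99.4 CPM in controls (-0.59 ± 0.16, adjusted p = 0.0245), and rose in SW480, with 36.2 and 52.0 CPM against 25.4 and 31.4 CPM (0.64 ± 0.17, adjusted p = 0.0481). SNHG32 rose in SW480 (0.64 ± 0.16, adjusted p = 0.0423) and stood at -0.45 ± 0.16 in SW620 (adjusted p = 0.0673), while SNHG6 (-0.55 ± 0.15, adjusted p = 0.0193) and GAS5 (-0.42 ± 0.13, adjusted p = 0.0446) fell in SW620 (all edgeR). SNHG29, the most abundant at a mean of 695 CPM, was not called. The SW480 calls were lost without the second SW480 caffeine library, where EPB41L4A-AS1 was at 0.33 (adjusted p = 0.534) and SNHG32 at 0.29 (adjusted p = 0.528), the first SW480 control (0.212 and 0.136) or either SW620 control (up to 0.0691 and 0.0660). The SW620 calls of EPB41L4A-AS1, SNHG6 and GAS5 were lost without the second SW620 caffeine library or either SW620 control (adjusted p up to 0.223, 0.233 and 0.391). With limma-voom none was called in SW480.

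Of 21 tested long noncoding RNAs known from work on colorectal cancer only BLACAT1 was called in SW620. That is 4.76%, against 14.4% of all tested genes and 10.4% of tested long noncoding RNAs. BLACAT1 stood there at 14.3 and 13.0 CPM with caffeine against 6.98 and 7.22 CPM in controls (0.94 ± 0.16, adjusted p = 0.00103, edgeR). In SW480 it stood at -0.04 ± 0.15 (adjusted p = 0.925, edgeR). The SW620 call held without any 1 library. In SW480 none of the list was called by edgeR, by DESeq2 or by limma-voom, and 1 had an unadjusted p under 0.05. The background there was 3.6% of all tested genes and 2.06% of tested long noncoding RNAs called by edgeR. The smallest adjusted p there was that of LINC00511 (0.33 ± 0.11, adjusted p = 0.131), and CYTOR stood at 0.46 ± 0.17 in SW620 (adjusted p = 0.0786). CASC15 had 0 CPM in both SW480 caffeine libraries and 0.0605 and 0.0584 CPM in the SW480 controls, under the floor, and NORAD, the most abundant at a mean of 377 CPM, was not called. CYTOR stands in this list and among the snoRNA host genes.

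**Figure D5:**
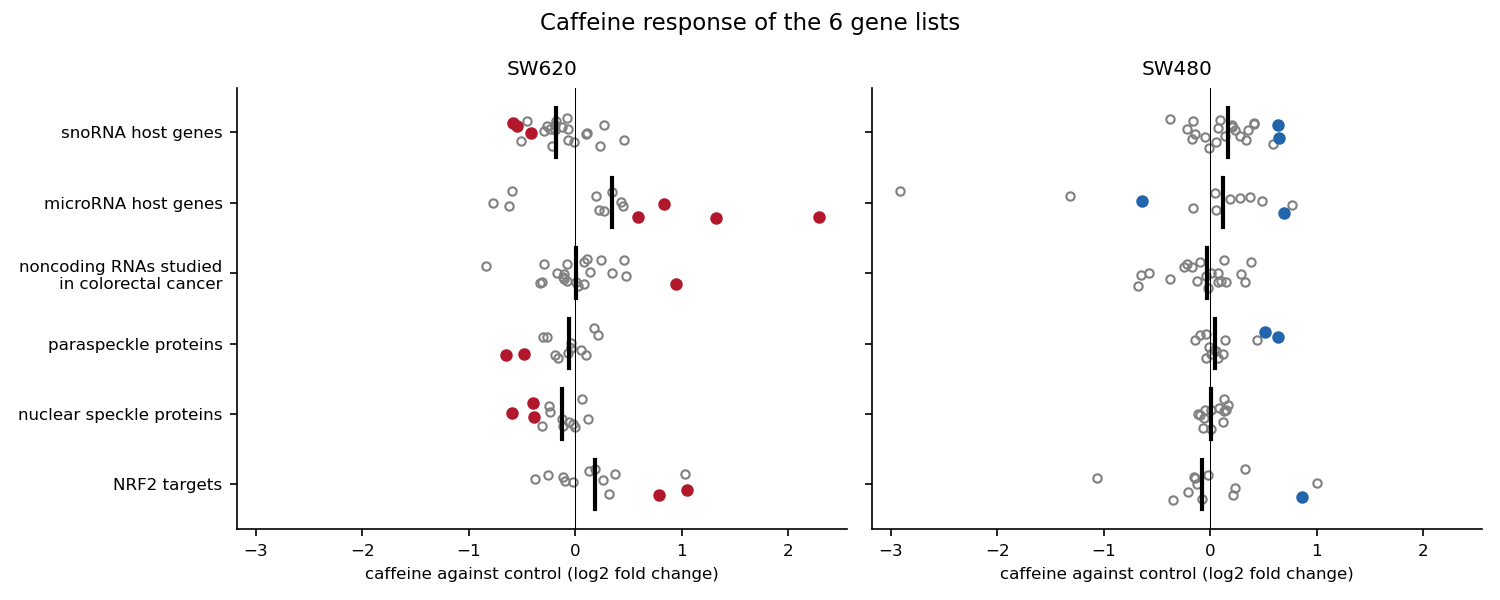
Log2 fold change, caffeine against control, of the tested genes of each of 6 lists in SW620 (left) and SW480 (right), filled where edgeR called them, with the list's median as a black bar; the vertical scatter is for display, and genes with a group at 0 are not drawn. The 4 called microRNA host genes lie to the right in SW620, up to 2.29 for MIR210HG, and the 2 called genes of the paraspeckle list and 3 of the nuclear speckle list lie to the left.

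By Pearson correlation of log2 CPM over the 8 libraries, which share line and treatment and so follow from the same 4 groups, the tested genes most like LUCAT1 were the intermediate filament gene VIM (r = 0.992), CFAP45 (0.990) and the annexin gene ANXA5 (0.987). VIM averaged 928 CPM in SW620 with caffeine and 345 CPM in SW620 controls, and 360 CPM with caffeine and 359 CPM without it in SW480. LINC00659 was most like FHL3 (0.984), PGM1 (0.980) and SDC4 (0.974). LINC01594 was most like PLCE1 (0.989) among named genes, behind a pair of Ensembl IDs with no symbol, and LINC01345 was most like CYB5A (0.997) and ASAH2B (0.996).

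LINC01238 was most like CASC11 (0.989), TPM4P2 (0.988) and DNAJC7 (0.968), and NEAT1 was most like LKAAEAR1 (0.997), the synaptic vesicle gene SYP (0.996) and STMND1 (0.996). MALAT1 was most like TMEM255B (0.979), PSMB8-AS1 (0.971) and SNHG3 (0.970). PSMB8-AS1 averaged 0.758 CPM in SW620 with caffeine and 1.33 CPM in SW620 controls, and 0.438 CPM with caffeine and 0.683 CPM without it in SW480.

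The cells carried the markers of their tissue. The summed level of 10 colon epithelial markers was 11596 to 12674 CPM in SW620 with caffeine and 10022 to 10073 CPM in SW620 controls, and 6190 to 6415 CPM with caffeine and 4455 to 5717 CPM without it in SW480, where CDH1 was under 1 CPM on average. Fibroblast markers summed to 45.8 to 48.6 CPM in SW620 with caffeine and 37.8 to 40.0 CPM in SW620 controls, mostly LUM (a mean of 30.7 CPM with caffeine and 31.8 CPM in controls) and COL1A1 (14.9 CPM with caffeine and 6.04 CPM in controls), with COL3A1 at 0, and to at most 7.41 CPM in SW480. Endothelial markers summed to 15.2 to 15.6 CPM in SW620 with caffeine and 9.52 to 9.61 CPM in SW620 controls, with KDR at 0 in SW620, and leukocyte markers to at most 4.14 CPM in any library, with PTPRC at 0 in SW620. Fibroblast and endothelial sums were higher with caffeine in SW620, the direction of LUCAT1 and LINC00659. LUM did not rise (log2 fold change -0.05 ± 0.14, adjusted p = 0.859), and COL1A1 did (1.30 ± 0.19, adjusted p = 0.000193, both edgeR). The endothelial genes PECAM1 (0.67 ± 0.21, adjusted p = 0.0391) and VWF (0.79 ± 0.22, adjusted p = 0.0261) were also called higher in SW620 by edgeR, but DESeq2 called neither. Any part of such cells in the results above was not tested. In bulk RNA, fewer cells that express an RNA and less of it per cell cannot be told apart.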

How the data were processed

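Poly-A RNA of 8 libraries was sequenced as single-end reads. Per the submitters' processing notes, the authors used Trim Galore, STAR 2.7.3a, featureCounts 2.0.5 and hg38, and deposited raw counts per Ensembl gene, 1 file per library. The annotation release and strand setting are not given in the sources used here. Rows of assignment totals, which name no gene, were left out of all sums; reads that fell on several genes came to 7.36% to 8.37%. Of 62649 gene IDs 62625 were matched to symbols and 58225 to GENCODE 29, from which coordinates, exon lengths and classes were taken. Promoter sequences came from RefSeq (GRCh38.p14).

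Of 35897 genes with any count, 17671 passed filterByExpr in edgeR 4.0.16 (R 4.3.3) and were tested. They held at least 99.8597% of each library's reads. All 8 libraries entered 1 quasi-likelihood fit (TMM, robust) with a mean per group, and p-values were adjusted over all tested genes. The biological coefficient of variation was 10.5%. A floor of 3 counts equals 0.129 to 0.190 CPM per library. Alternatives were DESeq2 size factors, no filter, the DESeq2 1.42.0 Wald test, limma-voom (limma 3.58.1), the replicate number as a block, a separate fit of each line, a fit without mitochondrial genes, and each library left out in turn.

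The members and lists were chosen with earlier results of these data known, so the planned test of the 5 chosen RNAs between untreated lines is given without p-values. Named were the 7 RNAs, their neighbours, their 3 most alike genes, and of each list the 2 genes with the smallest adjusted p per caffeine contrast and for the difference, with the most abundant. Called genes outside this rule (GAS5, MIR23AHG, SRSF1) were named after their values were seen. A few genes of the lists and neighbourhoods are not reported here.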

Additional observations from a re-analysis of the deposited data

Results flagged for a closer look

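For 11 of the genes set beside the noncoding RNAs the caffeine response differed between SW620 and SW480 in a test of the difference itself (edgeR quasi-likelihood test, adjusted over all tested genes). The difference, SW620 minus SW480 on the log2 scale, was above 0 for the noncoding RNAs MIR22HG (1.96, adjusted p = 9.06e-05), MIR210HG (1.52, adjusted p = 0.0169) and BLACAT1 (0.98, adjusted p = 0.0143). It was below 0 for the noncoding RNAs LINC01237 (-1.32, adjusted p = 0.0313), EPB41L4A-AS1 (-1.23, adjusted p = 0.00531) and SNHG32 (-1.09, adjusted p = 0.00881). It was also below 0 for the paraspeckle protein genes PSPC1 (-0.83, adjusted p = 0.0172) and RBM14 (-0.81, adjusted p = 0.0130), for the splicing factor genes SRSF2 (-0.68, adjusted p = 0.0245) and SRSF7 (-0.56, adjusted p = 0.0462), and for the cystine transporter gene SLC7A11 (-1.23, adjusted p = 0.00310). Among all tested genes 6.71% were called for this difference. The differences of MIR22HG, EPB41L4A-AS1, SNHG32 and SLC7A11 were called without any 1 library, and the other 7 lost their call without at least 1 library.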

How the results depend on the processing

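The responses of LUCAT1, LINC00659, LINC01594 and LINC01345 in SW620 and of LINC01238 in SW480 kept their direction under each alternative run. These RNAs were chosen by those responses in the same libraries, so this is a description and not a test of them. Between the untreated lines LUCAT1 ran from -0.081 to 0.088 and LINC01594 from 2.71 to 3.58 with single libraries left out. MALAT1 passed the threshold in SW480 without the filter (-0.60, adjusted p = 0.00384), by the DESeq2 Wald test (-0.64, 0.0429) and in a separate fit (-0.62, 0.0417), and in SW620 without the filter (-0.51, 0.00881) and in a separate fit (-0.52, 0.0263). The mean of both lines, added after seeing the data, was -0.57 for MALAT1 and 0.12 for NEAT1. With single libraries left out MALAT1 ran from -0.90 to -0.21 in SW620, -0.75 to -0.49 in SW480, -0.28 to 0.41 for the difference, 0.39 to 0.69 between untreated lines and 0.26 to 0.96 between treated lines, and NEAT1 from -0.18 to 0.13 in SW620. The same ranges were -0.20 to 0.12 for BLACAT1 in SW480, -0.067 to 0.12 and -0.30 to 0.18 for FRMD8 in SW620 and SW480, and -0.034 to 0.19 for SRSF2 in SW480.

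Calls over all genes in SW620, 2537, were 4617 when SW620 was fitted alone and 801 to 3245 with single libraries left out. In SW480, 636 became 1073 without the filter and 56 to 1421 with single libraries left out, 56 being without the second SW480 caffeine library. The difference, 1185, ran from 451 to 2188. The noncoding RNA lists had 8 calls in SW620 (3 to 11) and 4 in SW480 (0 to 7, and 7 without the filter). The protein and neighbour lists had 9 in SW620 (3 to 12) and 5 in SW480 (0 to 6). The noncoding lists had 0 edgeR calls in SW480 without the second SW480 caffeine library (5 at an unadjusted p under 0.05) or the first SW480 control (10), and the protein and neighbour lists had 0 without the second SW480 caffeine library (6). The cause was not tested. Counts near the floor limit LINC01594 and LINC01345 in SW480.

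By replicate number, deviations within the groups correlated little between groups (from -0.19 to 0.03). Whether samples were grown or prepared in pairs cannot be told from this. With the number as a replicate block 2249 genes were called in SW620, 590 in SW480 and 1087 for the difference. MALAT1 was -0.53 (adjusted p = 0.0550) in SW620 and -0.62 (0.0667) in SW480, and GAS5, HMOX1 and SRSF1 in SW620 and the difference of SRSF7 lost their calls.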
